A study of Mus musculus with 23 samples.

Results

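The data describe how mouse embryonic fibroblasts (MEFs) homozygous for the D allele of the glucocorticoid receptor (GR), written GRD/D, answered a low dose of dexamethasone (Dex). The members are the GRD/D libraries by their labels, namely 3 libraries of cells treated with 10 nM Dex for 5 h and 2 of cells treated with solvent (vehicle) for the same time, 5 of the 23 libraries of the series. No GRD/D vehicle replicate 3 is among the 23 libraries. The GRD protein carries an alanine-to-threonine exchange in the dimer interface of its DNA-binding domain. All mice were FVB/NJ. MEFs were grown from mid-gestation embryos after removal of the head and organs, and each culture of a genotype came from a different mouse, so the cells are primary mixed embryonic cultures and not a clonal line. The GRD/D libraries were compared with 6 GRwt/wt libraries (unmodified receptor), 6 GRL/L libraries (an isoleucine-to-alanine exchange in the ligand-binding domain) and 6 GRD+L/D+L libraries (both exchanges), each with 3 vehicle and 3 Dex libraries at the same dose and time. RNA-seq read counts per gene were measured, with totals of 18069112 to 20630299 counts in the GRD/D libraries and of 16452539 to 23117080 counts over the series.

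GR is a nuclear receptor that waits in the cytoplasm in a complex with Hsp90 and immunophilins and moves to the nucleus once a glucocorticoid such as Dex is bound. As a homodimer it binds palindromic glucocorticoid response elements (GREs), a pair of 6-base half-sites facing each other across a 3-base gap, and activates genes such as Fkbp5, Per1, Tsc22d3 and Dusp1. It can also bind half-sites or act on NF-kB and AP-1 without a palindrome, a mode linked to the lowering of inflammatory genes. The D exchange weakens the contact between the DNA-binding domains of a dimer, so the cells address the question of which Dex responses remain with such a receptor.

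Some features of the 5 libraries bear on each result below. Xist, the RNA of the inactive X chromosome, was at 332 counts per 1000000 counts of the library (CPM) in Dex replicate 1, at 346 CPM in Dex replicate 2 and at 345 CPM in vehicle replicate 1, while Y-linked genes summed to 225 CPM in Dex replicate 3 and to 228 CPM in vehicle replicate 2. The replicate numbers therefore join cultures of unlike sex at number 2 and do not pair the libraries, whereas Dex replicate 1 with vehicle replicate 1 and Dex replicate 3 with vehicle replicate 2 match in sex. Across genes with a mean of at least 1 CPM, the SD of the log2 difference was 0.26 in each of these sex-matched pairs, against 0.39 between the vehicle libraries and 0.44 to 0.56 between Dex replicate 2 and any other library. Whether the libraries of a matched pair came from the same culture is not given by the labels. Dex replicate 2 stood apart, with 13 macrophage markers summing to 1816 CPM against 283 to 1009 CPM in the other GRD/D libraries. Fibroblast markers summed to 51940 to 58239 CPM in the Dex libraries and to 56919 to 57270 CPM in the vehicle libraries, and epithelial markers were at or under 1.97 CPM. Chondrocyte markers were low, and theirs was the marker sum whose groups did not overlap. It was at 15.5 to 20.8 CPM with Dex and at 26.5 to 27.9 CPM with vehicle. The sum was mostly Sox9, with a log2 fold change of -0.608, and Col11a2, with -0.572. The markers Col2a1, Acan and Col9a1 were under 1 CPM in each GRD/D library, with log2 fold changes of 0.148, 1.597 and 1.509. The part of this sum in other differences was not tested. A difference in bulk RNA cannot tell fewer cells of a type from less RNA per cell. In GRwt/wt, vehicle replicate 1 had a highest Spearman correlation with any other library of 0.916, against 0.973 or more for every other library of the series, and vehicle replicate 3 had macrophage markers at 5200 CPM. Both enter the spread that all genotypes share in the edgeR model used below.

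Nr3c1, the gene of GR, was at 96.3, 92.8 and 90.2 CPM in the Dex libraries and at 107 and 106 CPM in the vehicle libraries. The levels did not overlap, but the log2 fold change (LFC) of -0.19 ± 0.66 (SE) was far inside its error. A gene count does not read the exchanged base, so it is no check of the genotype. Fkbp5, an Hsp90-bound immunophilin that restrains GR, was at 118, 94.8 and 93.9 CPM with Dex and at 32.6 and 31.1 CPM with vehicle, a mean of 102 ± 13.7 CPM (SD, n = 3) against 31.9 ± 1.01 CPM (SD, n = 2). All Dex libraries lay above both vehicle libraries, and the fitted ratio was 3.21. Tsc22d3, which codes for the anti-inflammatory protein GILZ, was at 59.9, 56.8 and 52.4 CPM with Dex and at 54.1 and 45.3 CPM with vehicle, so that the groups overlapped (LFC 0.18 ± 0.30, SE). Dusp1, a phosphatase that switches off MAP kinases, was at 16.1, 13.9 and 11.6 CPM with Dex and at 15.2 and 13.7 CPM with vehicle. Its groups overlapped as well, and its LFC was -0.06 ± 0.21 (SE), a sign that turned in 3 of 23 alternative fits. In the same test in GRwt/wt the LFC was 3.49 ± 0.27 for Fkbp5, 1.92 ± 0.27 for Tsc22d3 and 0.98 ± 0.19 for Dusp1. Of these 3 targets, Fkbp5 was the one whose GRD/D groups did not overlap.

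Of 15748 genes tested across the genome, 0 were called in GRD/D (edgeR's quasi-likelihood test, adjusted p of at most 0.05 and an LFC of at least 1 in size), a share of 0% of genes tested. At an unadjusted p under 0.05 there were 79 genes higher and 75 lower with Dex, 0.502% and 0.476% of the genes tested, and DESeq2 on the same libraries called 2 genes, Per1 and Fkbp5, both higher. With no response at all a share of 0.05 would pass this p, and these 154 genes are far fewer. The edgeR test was thus strict here, and a gene or list that misses this p is not shown to lack a response. Among 13099 genes with a mean of at least 1 CPM, 49 were over 2-fold higher with Dex without overlap (0.374%) and 10 were over 2-fold lower (0.0763%). Per1, a repressor of the circadian clock, had the smallest p. It was at 45.3, 42.4 and 38.2 CPM with Dex against 16.8 and 16.2 CPM with vehicle, and its LFC was 1.35 ± 0.21 (SE, edgeR adjusted p = 0.0999). Fkbp5 came next with an LFC of 1.68 ± 0.29 (SE, edgeR adjusted p = 0.137). All other genes tested had an adjusted p of 1. The call changed with the libraries in the fit and with the tool. Leaving out GRwt/wt vehicle replicates 1 and 3 gave an adjusted p of 0.000139 for Per1 and 0.0035 for Fkbp5 in edgeR, and fitting no library but those of GRD/D gave 0.0467 for both. Leaving out a GRD/D library gave an adjusted p of 0.204 to 1 for Per1 and of 0.302 to 1 for Fkbp5, with LFCs of 1.29 to 1.41 and of 1.57 to 1.74. Fits that take the sex of the culture into account, some of them chosen after seeing the data, also differed in their calls. Sex as a covariate over all libraries called 0 genes and sex nested in genotype called 1 (Per1), while the GRD/D libraries alone with sex as a covariate called 4 (Per1, Fkbp5, Rassf2 and Rtl3). Without Dex replicate 2, which leaves the sex-matched pairs, 47 genes were called in edgeR (35 higher, 12 lower) and 17 in DESeq2 (16 higher, 1 lower), on 1 residual degree of freedom. By adjusted p alone these fits gave 595 genes (334 higher, 261 lower) and 114 genes (85 higher, 29 lower).

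**Figure D1:**
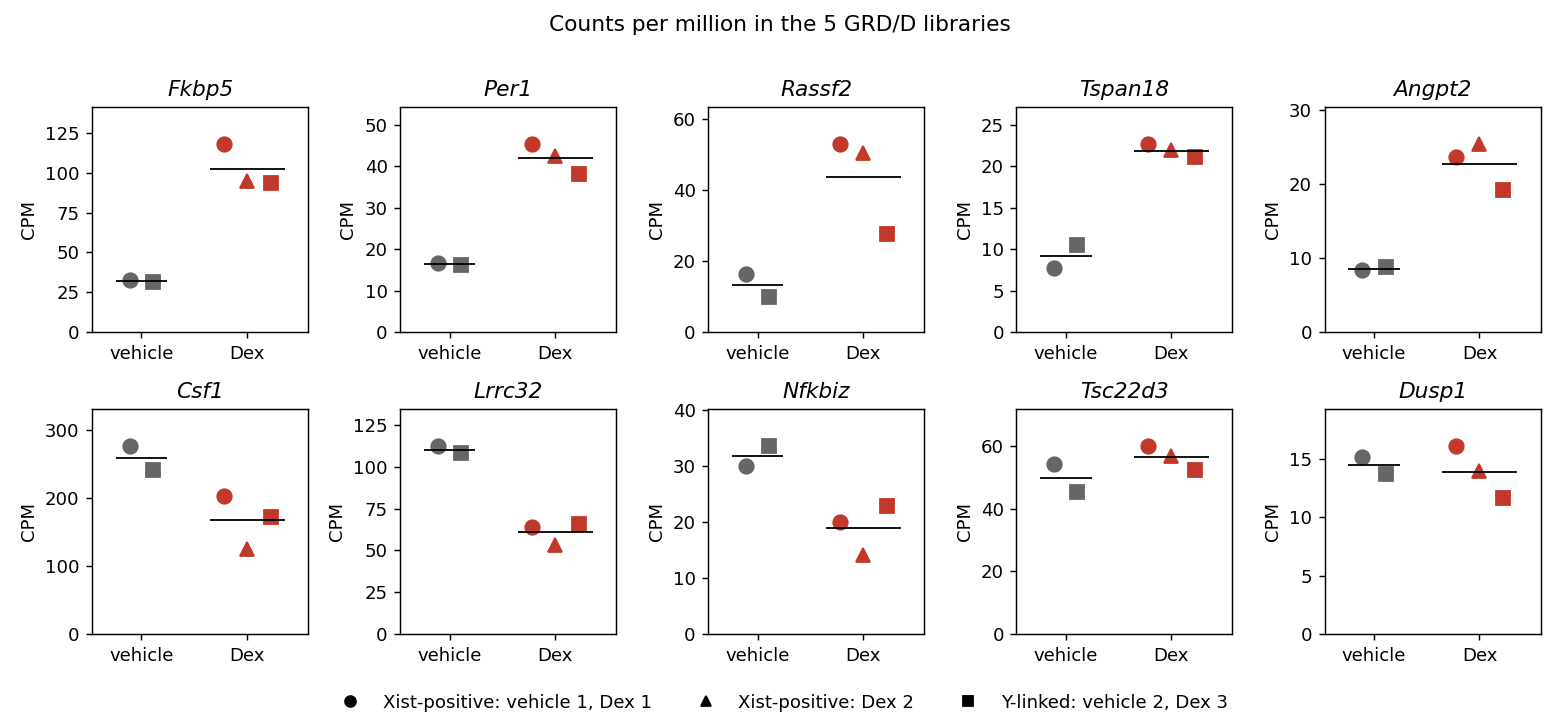
CPM (y axis from 0) of 10 genes in the 2 vehicle and 3 Dex libraries of GRD/D cells, where each point is a library, the line is the group mean and the marker gives the sex-matched pair. Fkbp5, Per1, Rassf2, Tspan18 and Angpt2 were higher in all 3 Dex libraries, Csf1, Lrrc32 and Nfkbiz were lower, and the groups of Tsc22d3 and Dusp1 overlapped.

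The other genes of smallest p included further genes that were at least 2-fold higher. Rassf2, a Ras-association domain protein, was at 52.8, 50.3 and 27.7 CPM with Dex and at 16.2 and 9.98 CPM with vehicle (LFC 1.74 ± 0.49, SE). Its libraries of Xist-positive cultures were higher than those of Y-linked cultures in each group, and Dex exceeded vehicle in both. Tspan18, a tetraspanin, was at 22.7, 21.9 and 21.1 CPM against 7.74 and 10.6 CPM, and Angpt2, a ligand of the endothelial receptor Tie2, was at 23.6, 25.3 and 19.1 CPM against 8.38 and 8.74 CPM. Ccn2, a matricellular protein also known as CTGF, was at 81.3, 60.4 and 107 CPM against 32.0 and 44.1 CPM. The LFCs of these genes were 1.26 ± 0.33, 1.40 ± 0.41 and 1.12 ± 0.37 (SE). Angpt2 lies inside the opposite strand of Mcph1, and since the strand setting of the counting is not given in the sources used here, its counts are uncertain. The same limit holds for other genes named here that overlap a gene on the other strand. Among them are Dusp1 (Ergic1), Zhx3 (Plcg1), Cebpd (Spidr), Atg16l2 (Fchsd2) and Fgf7 (Fam227b). Smaller differences without overlap were seen for Ttc27, Plekhf1, Gdpd1, Lrig3, Atg16l2 and Pld1, with LFCs from 0.46 to 0.72, and for the clock repressor Cry1 at 0.55.

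Among genes lower with Dex, Csf1, the growth factor of macrophages, was at 203, 125 and 172 CPM against 276 and 241 CPM (LFC -0.63 ± 0.18, SE). Lrrc32, which anchors latent TGF-beta at the cell surface, was at 64.2, 53.3 and 65.8 CPM against 112 and 108 CPM (LFC -0.85 ± 0.29, SE), and neither gene's groups overlapped. Nfkbiz, an atypical nuclear IkB protein that directs NF-kB to a subset of its targets, was at 19.96, 14.1 and 22.9 CPM against 29.96 and 33.6 CPM. Its LFC was -0.74 ± 0.27 (SE) in GRD/D and 0.49 ± 0.25 in GRwt/wt, and the difference of -1.24 ± 0.37 had an unadjusted p of 0.00388 and an adjusted p of 0.688 in edgeR. The other genes of smallest p on this side were Polm, Tiam1, Layn, Zmiz1 and Maml3, with LFCs from -0.34 to -0.60, and Mfsd7a, Pisd-ps1, Hsf4 and 4930556M19Rik, which were under 4 CPM in each GRD/D library. Pisd-ps1 is a transcribed pseudogene whose reads may be shared with its parent gene. Over all genes tested, the Dex libraries lay wholly above the vehicle libraries for 10.8% of genes and wholly below for 10.5%, so a lack of overlap on its own sets no gene apart.

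The sex-matched pairs gave a second reading, chosen after seeing the data, of the same 5 libraries. Among 9394 genes with a mean of at least 10 CPM, 40 were at least 1.5-fold higher with Dex in both pairs (0.426%), 8 were at least 1.5-fold lower in both (0.0852%) and 0 went in opposite directions by that much. At 2-fold the counts were 9, 0 and 0. The mean of 10 CPM was taken over all 5 libraries, so a gene can pass it through the group where it is high. Fst, P2ry10b, Zfp658, Angpt2, Cebpd and Ms4a6c, higher with Dex, were under 10 CPM in both vehicle libraries. Wnt4, lower with Dex, was under 10 CPM in every Dex library. With a minimum of 1 CPM in place of 10 CPM, 94 genes were higher, 52 lower and 25 opposite. At 10 CPM the same count over same-numbered libraries of GRL/L, and likewise of GRD+L/D+L, which do match in sex, gave at most 1 gene higher in both pairs and 0 lower for any choice of 2 pairs. At 1 CPM these pairs gave 10 to 30 genes higher, 12 to 21 lower and 17 to 41 opposite. Across the 9394 genes of at least 10 CPM the Dex-minus-vehicle differences of the GRD/D pairs had a Pearson correlation of 0.454 and a Spearman correlation of 0.268, and across the 13099 genes of at least 1 CPM these were 0.294 and 0.227. The pairs share no library, though genes are not independent replicates. Dex replicate 2 entered the choice only through the mean of at least 10 CPM over all 5 libraries, which Ms4a6c would miss without it. It was above both vehicle libraries for 36 of the 40 genes against 40% of all genes of this level. For the lower genes it was below both in 8 of the 8 against 36.9%. The vehicle libraries are shared with the pairs, so these counts are not independent of the choice.

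**Figure D2:**
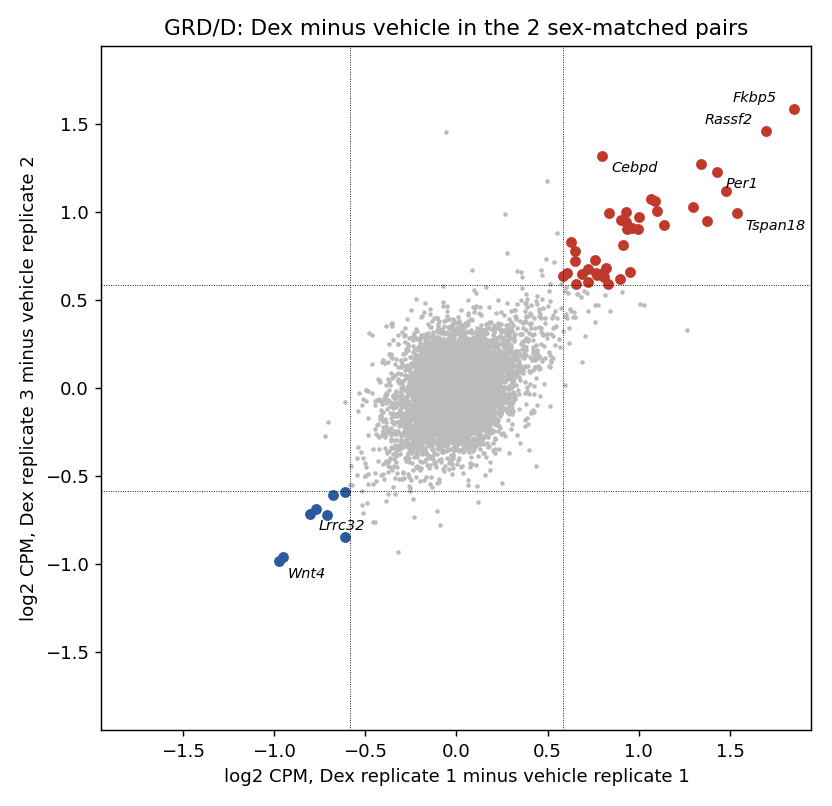
Each point is 1 of 9394 genes with a mean of at least 10 CPM, plotted by the log2 CPM difference of Dex replicate 1 minus vehicle replicate 1 (x axis) and of Dex replicate 3 minus vehicle replicate 2 (y axis) in GRD/D cells. Dotted lines mark 1.5-fold, and the 40 genes past it upward in both pairs (red) and the 8 past it downward (blue) leave the opposite corners empty.

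The 9 genes at least 2-fold higher in both pairs were Fkbp5, Rassf2, Ccn2, Per1, Angpt2, Slc4a4, Fst, Akr1c14 and Rtl3. Slc4a4, a sodium bicarbonate cotransporter, was at 66.8, 59.7 and 53.7 CPM with Dex and at 31.9 and 25.4 CPM with vehicle. Fst, the activin antagonist follistatin, was at 14.1, 12.3 and 13.5 CPM against 6.55 and 6.42 CPM, and Rtl3, a retrotransposon-derived gene on the X chromosome, was at 225, 230 and 173 CPM against 105 and 85.6 CPM. For these 3 genes each Dex library lay above both vehicle libraries. Akr1c14, an aldo-keto reductase of steroid metabolism, was at 26.4 and 21.0 CPM in Dex replicates 1 and 3 but at 12.4 CPM in Dex replicate 2, close to the vehicle levels of 10.7 and 10.2 CPM. Cebpd, a transcription factor of the C/EBP family that glucocorticoids induce early, had a like pattern, at 14.3 and 19.3 CPM in Dex replicates 1 and 3 and at 9.55 CPM in replicate 2, against 8.18 and 7.66 CPM. The others included the nuclear receptor coregulator Trim24, the histone demethylase Kdm7a, the matrix inhibitor of calcification Mgp, the metalloproteinase Adamts15, the enzyme of hexosamine synthesis Gfpt2, and Pi15, Mum1l1, Kctd12, Zfp658, Lurap1l and Pld1. Ms4a6c, a gene of macrophages, was also among the 40, at 11.3, 34.8 and 3.42 CPM against 5.76 and 2.12 CPM. Across the 5 libraries it was highest in Dex replicate 2, as the macrophage markers were, but within the matched pairs it was 1.94-fold and 1.58-fold higher with Dex while the 13 markers had median differences of -0.07 and -0.03.

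The 8 genes lower in both pairs were Wnt4, S1pr1, Fgf7, Rerg, Lrrc32, Tmem26, Fam84b and Pcdh18. The secreted ligand Wnt4 was at 8.18, 7.73 and 8.25 CPM with Dex and at 16.2 and 16.5 CPM with vehicle, with ratios of 0.509 and 0.505 in the pairs. The sphingosine-1-phosphate receptor S1pr1 was at 23.6, 34.4 and 23.9 CPM against 45.7 and 46.6 CPM, and neither gene's groups overlapped. The growth factor Fgf7 was at 27.0, 8.37 and 11.9 CPM against 44.2 and 19.7 CPM, so that its groups overlapped while the ratio within the matched pairs was 0.611 and 0.605. Rerg, a Ras-like GTPase, was at 8.29, 10.9 and 6.89 CPM against 12.7 and 12.5 CPM.

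The genotypes that the choice did not use gave different pictures for these genes. In GRwt/wt the 40 genes had a median LFC of 0.93, with 33 above 0 against 48.4% of all genes of this level, and 15 of them had Dex libraries wholly above the vehicle libraries against a background of 4.9%. In GRL/L the median was 0.06, with 31 of the 40 above 0 (background 48%) and 1 gene without overlap upward (background 2.21%). In GRD+L/D+L the median was 0.06, with 24 above 0 (background 49.1%) and 0 without overlap upward (background 1.48%). The 8 lower genes had a median LFC of -0.29 in GRwt/wt, where 2 did not overlap downward (background 4.94%), of -0.05 in GRL/L, where 0 did (background 1.88%), and of -0.01 in GRD+L/D+L, where 1 did (background 1.16%). Some genes had a difference in GRD/D but little in GRwt/wt, such as Lurap1l at 0.94 against -0.06, though over all libraries edgeR called the difference between these responses for no gene. Without GRwt/wt vehicle replicate 3 it was called for 3 genes, Fkbp5, Faxc and Aff1, and without GRwt/wt vehicle replicate 2 for 2, Gpx8 and Cobll1, all with the lower LFC in GRD/D.

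**Figure D3:**
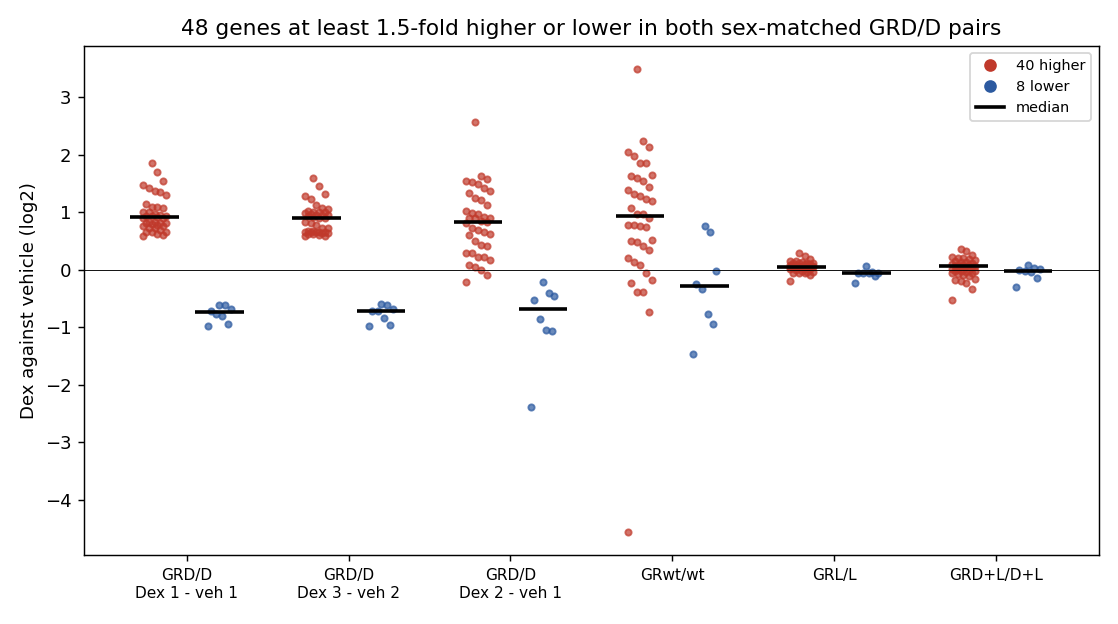
Dex-against-vehicle differences (log2, y axis) of the 40 higher genes (red) and the 8 lower genes (blue) in the 3 GRD/D comparisons of single libraries and as fitted in the other genotypes, with 1 point a gene and a black line at the median. The first 2 columns chose the genes by their fold difference. The third shares vehicle replicate 1 with the first, and its Dex library entered the choice only through the minimum mean CPM. The GRwt/wt points of the 40 genes have a median of 0.93, while those of GRL/L cells and of GRD+L/D+L cells lie close to 0.

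The genes that answered Dex in GRwt/wt were then followed in GRD/D. In GRwt/wt 25 genes were called, all higher (0.159% of genes tested). In GRD/D all 25 had an LFC below that of GRwt/wt, as genes chosen for a high value in GRwt/wt would tend to. Their median LFC in GRD/D was 0.38, with 21 above 0 against 50.8% of all genes tested, and 16 had Dex libraries wholly above the vehicle libraries against 10.8%. Over all genes tested the median was 0.00. Restricted to the 19 genes with a mean of at least 1 CPM in GRD/D the median was 0.34, and 17 of them were higher in both sex-matched pairs against a background of 28.1%. The size of this group followed the GRwt/wt libraries. Without GRwt/wt vehicle replicate 1, 41 genes were called higher in GRwt/wt with a median of 0.34 in GRD/D. Without GRwt/wt vehicle replicate 2, 182 genes were called higher in GRwt/wt and their median in GRD/D was 0.02, with 94 above 0, and without vehicle replicate 3, which held the macrophage signal, 93 genes were called with a median of 0.12.

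The estimated share of the GRwt/wt response differed among the 25 genes. Per1 kept the most among genes of at least 1 CPM, with an LFC of 1.35 in GRD/D against 1.85 in GRwt/wt, 72.9% on the log2 scale, followed by Plekhf1, a phosphoinositide-binding protein of endosomes, with 0.72 against 1.16, or 61.8%. Fkbp5 kept 48.2% and Per2, the partner of Per1 in the clock, 44.2%, with Per2 at 9.09, 6.25 and 6.19 CPM against 4.14 and 3.62 CPM. Klf15 kept 42.1% and Pld1 kept 39.5%. Klf15, a Krüppel-like factor of metabolic control, was at 3.32, 4.24 and 4.18 CPM against 2.56 and 2.02 CPM. At the other end, Tsc22d3, Zhx3 and Peak1 kept 8.27% to 10.5%, and Dock9 and Gclc, the catalytic subunit of glutathione synthesis, had LFCs of -0.12 and -0.16 in GRD/D against 1.19 and 1.16 in GRwt/wt. Sesn1, a stress-induced brake on mTORC1, had 0.26 against 1.501, and Wee1, the kinase that holds back entry into mitosis, had 0.34 against 1.38. The groups of Peak1, Sesn1, Dock9 and Gclc overlapped in GRD/D. These shares carry the errors of both fits and were not tested against each other. Without GRwt/wt vehicle replicate 1, the library that stood apart, the share was 61.1% for Per1, 49.8% for Plekhf1, 48.9% for Fkbp5 and 45.1% for Per2, and it was 8.78% for Tsc22d3, 10.6% for Zhx3 and 10.3% for Peak1. Without GRwt/wt vehicle replicates 1 and 3 the order changed, with Per1 at 64.0%, Klf15 at 57.6%, Col11a1 at 54.0%, Plekhf1 at 52.5% and Fkbp5 at 40.4%. Col11a1 had 28.7% over all libraries. Tsc22d3, Zhx3 and Peak1 stayed low in that fit, at 8.69%, 10.1% and 11.1%. The low values also turned on single GRD/D libraries. Leaving out any 1 of them moved the LFC of Peak1 by over 1.5 times, from 0.15 to between 0.02 (without Dex replicate 1) and 0.32 (without Dex replicate 2). The LFC of Tsc22d3, 0.18, was 0.06 without vehicle replicate 2 and 0.30 without vehicle replicate 1. Without Dex replicate 2 and with sex as a covariate, Peak1 had an LFC of 0.32 with an adjusted p of 5.11e-05 in edgeR.

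**Figure D4:**
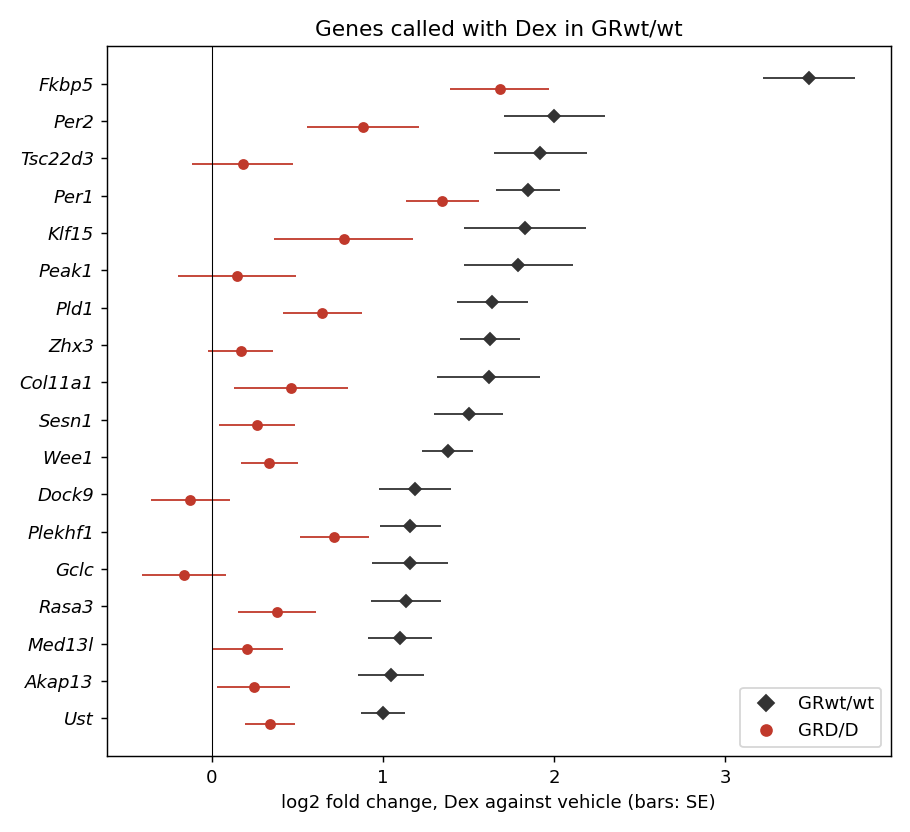
LFC of Dex against vehicle (x axis, log2, bars are SE) of 18 of the 19 genes called in GRwt/wt that had a mean of at least 1 CPM in GRD/D, with GRwt/wt as diamonds and GRD/D as circles. Every circle lies left of its diamond, and Per1 and Fkbp5 lie farthest from 0 among the circles at 1.35 and 1.68.

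The remaining 6 of the 25 genes were near silent in GRD/D. Hif3a had 3, 6 and 2 counts in the Dex libraries and 0 counts in both vehicle libraries, at least 2.59-fold higher with Dex if 3 counts over the vehicle group are taken as the floor. Zbtb16, a zinc-finger repressor among the most Dex-responsive genes of many cells, had 6, 4 and 5 counts with Dex and 0 and 2 counts with vehicle. Rasd1, a Dex-induced Ras protein with an LFC of 7.77 in GRwt/wt, had 0, 1 and 3 counts with Dex and 5 and 3 with vehicle, and Fam107a had a single count in all 5 libraries. Card14 had 4 to 6 counts with Dex and 2 in each vehicle library, and AC103362.1 had 4 to 8 with Dex and 6 to 10 with vehicle. Apart from Hif3a, whose unadjusted p was 0.0264 (edgeR, adjusted p of 1), none reached an unadjusted p under 0.05 in edgeR. The floor covers counting error only. The GRwt/wt Dex libraries held 102 to 286 counts of Fam107a, 37 to 120 of Card14 and 14 to 57 of Rasd1. With Hif3a set to its bound and Fam107a left out, the median of the group was 0.36.

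The difference between the responses of GRD/D and the other genotypes was tested for each gene in the same model. Against GRwt/wt 0 genes were called (0%), with a smallest adjusted p of 0.157, and at an unadjusted p under 0.05 there were 783 genes with a higher and 336 with a lower LFC in GRD/D, 4.97% and 2.13% of the genes tested. The smallest p-values were those of Rasd1 and Zhx3. The macrophage markers, high in GRwt/wt vehicle replicate 3, had a median LFC of -5.23 in GRwt/wt against 0.84 in GRD/D, and their part in these counts was not tested. DESeq2 called 8 genes, all with a lower LFC in GRD/D, among them Fkbp5, Tsc22d3, Dusp1, Zhx3, Wee1, Sesn1 and Dock9. By adjusted p alone DESeq2 gave 24 genes, 18 with a lower and 6 with a higher LFC in GRD/D. Of the 25 genes called in GRwt/wt, 18 had a lower LFC in GRD/D at an unadjusted p under 0.05 in edgeR, where the choice of the genes favours this direction. For Fkbp5 the difference was -1.81 ± 0.36 (SE) with an adjusted p of 0.471, and for Per1 it was -0.50 ± 0.27 with an adjusted p of 0.761, from edgeR. Against GRL/L 0 genes were called (0%), with 39 higher (0.248%) and 35 lower (0.222%) at an unadjusted p under 0.05, and against GRD+L/D+L 0 were called (0%), with 52 higher (0.33%) and 51 lower (0.324%). DESeq2 called 0 and 4 genes in these comparisons, and Per1 was among the 4, while the other 3 were at 0 counts in every GRD+L/D+L Dex library, with fitted differences of 15.91 to 16.94 that are no measure of size. The response of Per1 in GRD/D exceeded that of GRL/L by 1.204 ± 0.28 and that of GRD+L/D+L by 1.41 ± 0.28 (SE), with unadjusted p-values of 0.000395 and 8.15e-05 in edgeR and adjusted p-values of 0.9999 and 1. Without GRwt/wt vehicle replicates 1 and 3, Per1 was called in both of these comparisons, with adjusted p-values of 0.0204 and 0.00281. Fkbp5 differed by 1.56 ± 0.37 and 1.61 ± 0.37 (SE), and it was called against GRL/L where only the libraries of these 2 genotypes were fitted, with an adjusted p of 0.00498 in edgeR.

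Promoter sequence was set beside these values. RefSeq promoter windows of GRCm38.p6, from 250 bases before to 50 bases after a transcript start, were found for 27 of the 40 higher genes and 17 of the 25 genes called in GRwt/wt. The core palindrome, the letters GNACA and TGTNC with 3 bases of any kind between them, searched as all motifs on both strands, occurred in 0.475% of all 32851 windows, in 0.33% of the 14540 windows of genes tested and in 0% of the 39 windows of the 40 genes. It occurred in 7.69% of 26 windows of the 25 genes, both of them of Fam107a, and in 7.41% of 27 windows of the 20 genes of a glucocorticoid-induced list, in Sgk1 and Mt1. The half-site AGAACA (or its reverse complement TGTTCT), which can overlap a palindrome, occurred in 19% of all windows, in 12.5% of the windows of genes tested and in 23.1% of those of the 40 genes. The AP-1 letters TGANTCA occurred in 7.81%, 5.32% and 15.4% of these sets. The half-site was also found in 26.9% of the windows of the 25 genes, and none of these shares was tested. A match is a description of letters and no evidence of binding, and a window without a match does not show that the gene lacks the motif elsewhere. The windows of these 3 genes are shown because they hold the whole palindrome, with the palindrome in capitals and 20 bases on each side, 5′ to 3′ along the gene:
Sgk1 (chr10:21993682-21993734, plus strand): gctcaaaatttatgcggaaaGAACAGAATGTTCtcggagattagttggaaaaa
Mt1 (chr8:94178975-94179027, plus strand): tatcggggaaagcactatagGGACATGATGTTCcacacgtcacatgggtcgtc
Fam107a (chr14:8309865-8309917, minus strand): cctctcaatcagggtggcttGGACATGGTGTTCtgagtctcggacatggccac

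Sgk1, a kinase of salt balance, was at 170, 123 and 143 CPM with Dex and 130 and 121 CPM with vehicle in GRD/D, and its LFC was 0.21 ± 0.32 (SE) against 1.11 ± 0.29 in GRwt/wt. Mt1, a metal-binding metallothionein, was at 348, 266 and 342 CPM against 374 and 333 CPM, and both genes' groups overlapped. Within the sex-matched pairs Sgk1 was 1.304-fold and 1.17-fold higher with Dex, and without Dex replicate 2, with sex as a covariate, its LFC was 0.31 with an adjusted p of 9.19e-05 in edgeR. Fam107a had a single count in all 5 libraries. Half-sites were found both in genes at least 1.5-fold higher in the sex-matched pairs and in genes whose groups overlapped in GRD/D, measures that do not exclude each other. Of the former, 6 are shown, with the half-site in capitals, and Arap1, Ctla2a and Inhbb also held one:
Pld1 (chr3:27938447-27938492, plus strand): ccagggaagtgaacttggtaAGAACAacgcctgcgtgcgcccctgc
Trim24 (chr6:37900335-37900380, plus strand): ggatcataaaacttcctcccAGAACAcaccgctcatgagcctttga
Zfp658 (chr7:43562210-43562255, plus strand): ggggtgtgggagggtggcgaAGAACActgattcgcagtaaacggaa
Rtl3 (chrX:106840584-106840629, minus strand): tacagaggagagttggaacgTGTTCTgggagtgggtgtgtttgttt
Lurap1l (chr4:80910436-80910476, plus strand): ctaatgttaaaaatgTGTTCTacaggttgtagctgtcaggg
Mgll (chr6:88724214-88724259, plus strand): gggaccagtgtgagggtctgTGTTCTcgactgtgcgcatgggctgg

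Of the genes called in GRwt/wt whose groups overlapped in GRD/D, the windows of Tsc22d3, Dock9 and Peak1 held the same half-site:
Tsc22d3 (chrX:140600682-140600727, minus strand): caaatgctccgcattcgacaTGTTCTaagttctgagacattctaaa
Dock9 (chr14:121698531-121698576, minus strand): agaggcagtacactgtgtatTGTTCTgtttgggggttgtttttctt
Peak1 (chr9:56418272-56418300, minus strand): tcgTGTTCTccggatattggcactcaggg
The overlap of Tsc22d3 and Peak1 is one over all 5 libraries. Within the sex-matched pairs Tsc22d3 was 1.11-fold and 1.16-fold higher with Dex and Peak1 was 1.37-fold and 1.13-fold higher, below the 1.5-fold that chose the 40 genes.

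The windows of Fkbp5 and Per1, the leading genes of GRD/D, held none of the 3 motifs. These windows cover only bases close to a transcript start, and the rest of each gene and its surroundings was not searched. The result therefore does not show that either gene lacks a motif. In the GENCODE M21 annotation of GRCm38, Fkbp5 spans chr17:28399094-28517527 on the minus strand and Per1 spans chr11:69095217-69109960 on the plus strand. Rassf2 spans chr2:131989415-132030258 on the minus strand, Csf1 spans chr3:107741048-107760469 on the minus strand and Lrrc32 spans chr7:98489283-98502181 on the plus strand, and each of the 5 is a protein-coding gene.

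The gene lists placed these genes in pathways. Of 20 genes known to be induced by glucocorticoids, 3 had an unadjusted p under 0.05, namely Per1, Fkbp5 and the near-silent Hif3a, all higher (background 0.502%). In 9 of the 20 the Dex libraries lay wholly above the vehicle libraries (background 10.8%) and in 1, Angptl4, wholly below. The median LFC was 0.17 in GRD/D and 1.42 in GRwt/wt. Within the sex-matched pairs 12 of 18 list genes with at least 1 CPM were higher in both (background 28.1%) and 1 was lower in both (background 29%). By adjusted p in edgeR without Dex replicate 2 and with sex as a covariate, 7 genes of the list were higher (background 2.36%), namely Fkbp5, Per1, Cebpd, Glul, Pdk4, Sgk1 and Errfi1 with LFCs of 1.73, 1.34, 1.07, 0.49, 0.31, 0.31 and 0.29, and 1 was lower (background 1.84%), Angptl4 with -0.25. The metallothioneins Mt1 and Mt2 had LFCs of -0.15 and -0.20 in GRD/D against 0.58 and 1.03 in GRwt/wt. Among 20 clock genes and Krüppel-like factors, Per1, Per2 and Cry1 were higher at an unadjusted p under 0.05, and the clock repressor Nr1d1 (REV-ERBalpha) was lower, at 18.5, 14.4 and 18.1 CPM against 27.0 and 25.6 CPM. Nr1d1 overlaps Thra on the other strand. Hlf, an output factor of the clock, was at 11.1, 9.11 and 9.88 CPM against 5.86 and 3.31 CPM without passing that p. Of the 16 genes of the receptor complex only Fkbp5 passed it, and 0 of 16 coregulators, 0 of 14 anti-inflammatory effectors, 0 of 18 metabolic targets and 0 of 6 zinc-handling genes did, with median LFCs of 0.05, -0.04, -0.05, 0.01 and -0.11 in the order named. So few of all genes tested passed that p (0.502% higher, 0.476% lower) that a count of 0 shows no lack of response. By adjusted p without Dex replicate 2, in the edgeR fit named above, 4 clock genes and Krüppel-like factors were higher and 2 lower, and 4 metabolic targets were higher and 1 lower. In that fit 1 anti-inflammatory effector was higher and 3 were lower, 2 genes of the receptor complex were higher and 0 lower, and 1 coregulator and 1 zinc-handling gene were lower with 0 higher in either list.

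Genes that glucocorticoids are known to lower were on the whole below vehicle, and none was called over all libraries. Of 21 tested inflammatory genes, 1, Csf1, had an unadjusted p under 0.05 (background 0.476%), and 4 had an LFC above 0 against 50.8% of all genes. In 8 of the 21 the Dex libraries lay wholly below the vehicle libraries (background 10.5%), and in 0 wholly above. The median LFC was -0.42, beside -0.50 in GRwt/wt and 0.00 over all genes. The macrophage markers had a median LFC of -5.23 in GRwt/wt, where vehicle replicate 3 held 5200 CPM of them, and their part in the -0.50 was not tested. The chemokine Cxcl5 was at 6.81, 2.81 and 5.21 CPM with Dex and at 20.7 and 13.6 CPM with vehicle, and Cxcl1 was at 2.69, 0.985 and 3.04 CPM against 7.64 and 5.28 CPM. Ccl2, which attracts monocytes, was at 32.4, 14.2 and 33.4 CPM against 45.4 and 40.1 CPM, and the adhesion molecule Vcam1 was at 115, 71.0 and 88.3 CPM against 133 and 121 CPM. Dex replicate 2 was the lowest library for each of these 4 genes, and the other Dex libraries were also below both vehicle libraries. Ptgs2, the inducible cyclooxygenase, was at 61.0 and 74.7 CPM in Dex replicates 1 and 3 but at 22.95 CPM in replicate 2, against 69.7 and 92.7 CPM, so that its groups overlapped. Within the sex-matched pairs, 15 of 19 list genes with at least 1 CPM were lower in both (background 29%), with medians of -0.34 and -0.31, against -0.81 for Dex replicate 2 minus vehicle replicate 1. In the edgeR fit without Dex replicate 2 and with sex as a covariate, chosen after seeing the data, Cxcl5 and Cxcl1 were called, with LFCs of -1.504 and -1.16 and adjusted p-values of 2.06e-23 and 4.36e-06. DESeq2 on these 4 libraries called Cxcl5 as well, with an LFC of -1.497 and an adjusted p of 4.04e-06. By adjusted p alone 9 genes of the list were lower with Dex in that edgeR fit (background 1.84%), the others being Csf1 (LFC -0.46), Mmp13 (-0.46), Ccl2 (-0.38), Plau (-0.35), Vcam1 (-0.33), Has2 (-0.31) and Ptgs2 (-0.25), and 1 was higher (background 2.36%). These p-values rest on 1 residual degree of freedom.

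**Figure D5:**
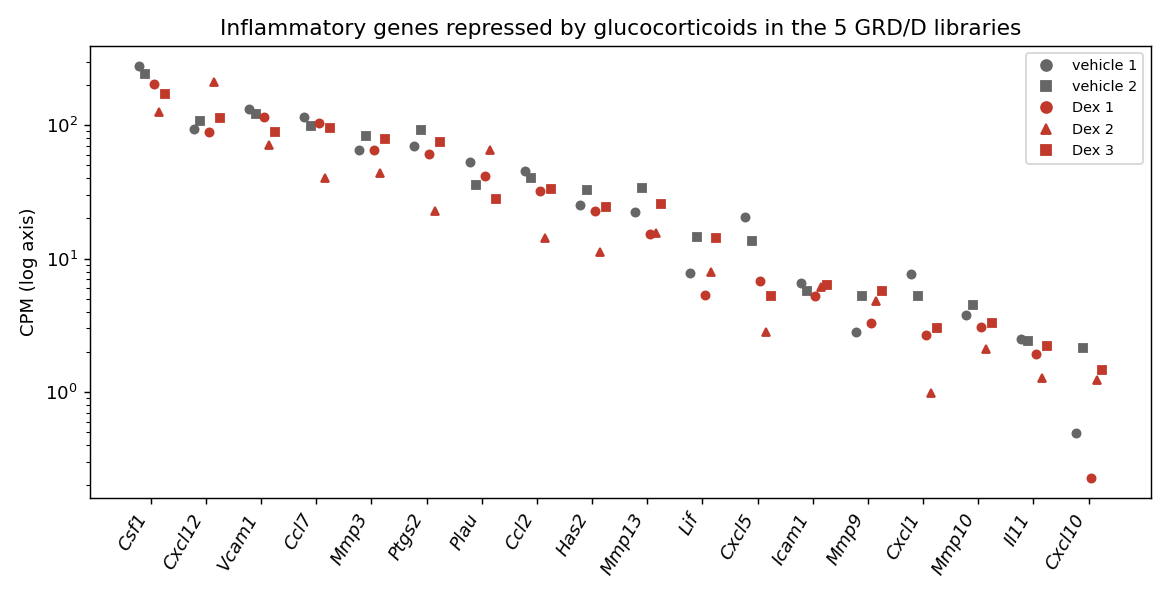
CPM (log axis) of 18 of the 19 inflammatory genes with a mean of at least 1 CPM in the 5 GRD/D libraries, with vehicle in grey, Dex in red and the marker shape giving the sex-matched pair (circles, squares) or Dex replicate 2 (triangles). Dex replicate 2 is often the lowest point, and for Cxcl5, Cxcl1, Ccl2, Vcam1 and Csf1 the 3 Dex libraries lie below both vehicle libraries.

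The AP-1 and immediate early genes had a median LFC of -0.14 in GRD/D and -0.06 in GRwt/wt. In 6 of 14 the Dex libraries lay wholly below the vehicle libraries (background 10.5%), and 0 passed an unadjusted p under 0.05. Ier3, an early stress gene, was at 16.5, 16.2 and 17.7 CPM against 23.7 and 22.8 CPM. Of 22 extracellular matrix genes 1, the elastin gene Eln, had an unadjusted p under 0.05 (background 0.502%), at 3.43, 19.5 and 3.31 CPM against 2.07 and 1.86 CPM, a difference for which Dex replicate 2 was by far the highest, and the median of the list was 0.01. By adjusted p in edgeR without Dex replicate 2 and with sex as a covariate, 1 gene of each of these lists was lower (background 1.84%), Ier3 with an LFC of -0.44 and the metalloproteinase inhibitor Timp3 with -0.39, and 0 were higher. Cell cycle genes had a median LFC of 0.36, with 19 of 21 above 0 and 0 past an unadjusted p under 0.05. Their medians in the matched pairs were 0.07 and 0.15, and that of Dex replicate 2 minus vehicle replicate 1 was 0.84. Within the pairs 11 of the 21 were higher in both (background 28.1%) and 3 lower in both (background 29%). Without Dex replicate 2 and with sex as a covariate, 3 of the list were higher by adjusted p in edgeR (background 2.36%), Cdkn1c, Mki67 and Cdkn2b with LFCs of 0.37, 0.36 and 0.27, and 0 were lower. The 13 macrophage markers had a median of 1.36 in Dex replicate 2 minus vehicle replicate 1 and of -0.07 and -0.03 in the matched pairs, and their part in the other differences of that library was not tested.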

How the data were processed

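MEFs of 4 GR genotypes were profiled by RNA-seq, and the 5 GRD/D libraries were grouped by their titles. Per the labels, the authors mapped reads to mm10 with HISAT2 2.1.0 and deposited raw read counts per gene from featureCounts 2.0.0, whose strand setting and annotation release are not given in the sources used here. Symbols and coordinates were taken from GENCODE M21 (GRCm38), which named 55141 of 55487 identifiers. Counts of all 23 libraries were fitted in edgeR 4.0.16 (R 4.3.3) with TMM scaling, filterByExpr, 1 mean per group, a prior count of 0.125 and Benjamini-Hochberg adjustment, so that genotypes share the spread, with 15 residual degrees of freedom. CPM values are counts per 1000000 counts of the TMM-scaled library. A gene was called at an adjusted p of at most 0.05 and an LFC of at least 1 in size. P-values of the main model measure the spread between libraries of a group, which came from different cultures. That model does not pair Dex and vehicle libraries that may share a culture. In the fits without Dex replicate 2 and with sex as a covariate, p-values measure how the Dex-minus-vehicle differences vary between the sex-matched pairs. An exact permutation test of 3 against 2 libraries could not go below a two-sided p of 0.2 and was not used. The fitting code was tested on simulated data.

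Named genes were Nr3c1, Fkbp5, Tsc22d3, Dusp1, every gene called in GRD/D, the 12 higher and 12 lower genes of smallest p with at least 1 CPM and no overlap, list members with an unadjusted p under 0.05 or among the 4 of highest level, and genes called in GRwt/wt. The genes of the sex-matched pairs, Hlf, Ier3, Cebpd and the chemokines were singled out after their values were seen. The members, lists and tests were chosen with earlier results of these data known. The log2 CPM of the sex-matched pairs used a prior count of 2. Same-numbered GRD/D libraries differed in sex, and the deviations of numbers 1 and 2 correlated with a Pearson r of -0.00439 over 13099 genes, so the numbers do not pair the libraries. No libraries of a GRD/D group agreed within counting noise (mean chi-square per gene of at least 9.11). 1 gene called in GRwt/wt and 1 inflammatory gene are not reported here by name. Alternatives included DESeq2 1.42.0.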

Additional observations from a re-analysis of the deposited data

How the results depend on the processing

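Of 15748 genes tested, the 0 calls in GRD/D stayed 0 with RLE or upper-quartile scaling, without an expression filter, with at least 10 counts in every library, with a prior count of 2, with sex as a covariate and by adjusted p alone. DESeq2 called 2 genes, the fit of GRD/D libraries only called 2, and leaving out both GRwt/wt vehicle replicates 1 and 3 called 2, each time Per1 and Fkbp5. Leaving out single libraries gave 0 to 2 calls, with 0 for each GRD/D library, 1 without GRwt/wt vehicle replicate 1 and 2 without GRwt/wt vehicle replicate 3. Among settings chosen after seeing the data, sex nested in genotype called 1 gene (Per1), the mutant genotypes alone 3, these with sex nested 4, and GRD/D alone with sex as a covariate 4. Without Dex replicate 2 and with sex as a covariate, 47 were called in edgeR (35 higher, 12 lower) and 17 in DESeq2 (16 higher, 1 lower), on 1 residual degree of freedom.

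The difference from GRwt/wt gave 8 calls in DESeq2, 1 (Fkbp5) without GRwt/wt vehicle replicates 1 and 3, and 0 to 3 when leaving out single libraries, with 2 without GRwt/wt vehicle replicate 2 and 3 without replicate 3. The difference from GRL/L gave 2 with only these genotypes, and 1 (Per1) without GRwt/wt vehicle replicates 1 and 3, with the mutants alone and with the mutants and sex nested. The difference from GRD+L/D+L gave 4 in DESeq2 and 1 (Per1) in the same 3 settings.

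The replicate block could not pair the libraries, since number 2 joins cultures of unlike sex. It gave 7 calls in GRD/D, of which the 4 lower genes (Kdm5d, Uty, Ddx3y, Eif2s3y) are Y-linked, and 11, 6 and 4 calls in the differences from GRwt/wt, GRL/L and GRD+L/D+L, each including these 4.

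The median LFC of the glucocorticoid-induced list, 0.17, was 0.22 with sex as a covariate and 0.21 in DESeq2 without Dex replicate 2. That of the genes called in GRwt/wt, chosen anew under each setting whose fit held GRwt/wt libraries and otherwise kept as the same 25 genes, was 0.38, and was 0.46 with upper-quartile scaling, 0.33 with at least 10 counts, 0.34 with GRD/D fitted alone, 0.25 with the replicate block, 0.31 in DESeq2, 0.26 without GRwt/wt vehicle replicates 1 and 3, 0.195 with sex nested, 0.34 with the mutants alone and 0.35 with the mutants and sex nested. Leaving out single libraries gave 0.0176 (without GRwt/wt vehicle replicate 2) to 0.45. The cause of these changes was not tested.

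The LFC of Dusp1, -0.06, turned to 0.0532 with the replicate block, and ranged from -0.18 to 0.0547 when leaving out single libraries. That of Fam107a, which had 1 count, ranged from 0 to 2.32. A library left out of a group of 2 leaves a lone sample assumed to vary like the other groups. Counts per gene limit what can be seen for genes near 0.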
